A study of Mus musculus with 20 samples.

Results

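The metallothioneins Mt1 and Mt2, the ZIP importers Slc39a14, Slc39a4 and Slc39a5, and the ZnT transporters Slc30a1 and Slc30a10 were followed in mouse liver after IL-1β. These 7 genes were found by symbol among the 37681 genes of each count table, and all 7 were among the 15578 genes tested. To be tested, a gene needed 5 or more reads in at least 5 libraries of some table. Within the main table, 6 of the 7 passed that minimum, and Slc39a5 entered the test through other tables. All 10 mice were male, 12 weeks old and of a strain labelled C57/BL6, with no altered allele named in the labels. The treated group of 5 mice (ILB) received IL-1β, a cytokine that starts inflammatory signaling, at 20 µg/kg. The untreated group of 5 mice (UNT) received saline. Livers were taken 4 hours later. RNA from each liver was made into 1 Illumina HiSeq library and 1 Ion Torrent Proton library, and each platform's reads were aligned with GSNAP, STAR or STAR + Bowtie2. The resulting 6 tables hold the number of reads per gene, and the Illumina STAR table was the main one.

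Metallothioneins are small, cysteine-rich proteins that hold zinc and copper in the cytosol, and the metal-sensing transcription factor encoded by Mtf1 drives them through metal response elements. ZIP proteins (the Slc39a family) carry zinc into the cytosol, from outside the cell or from its compartments, and ZnT proteins (the Slc30a family) carry it the opposite way. In the acute-phase response the liver is known to take up zinc from plasma, with ZIP14, the product of Slc39a14, as a main importer, and IL-6 and glucocorticoids are known to raise metallothionein expression there.

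The promoters of the 4 genes below are shown because a metal response element is the best known way in which zinc acts on this gene family. They include both metallothioneins, the exporter that fell and an exporter that was not called. Each sequence is the 250 bases before the RefSeq transcription start, read 5′ to 3′ along the gene's own strand and placed by exact match in build NCBIM37 (mm9). Mt1 is at chr8:96702739-96702988, Mt2 at chr8:96696268-96696517, Slc30a1 at chr1:193730410-193730659 and Slc30a10 at chr1:187278477-187278726, all on the plus strand. The last 14 bases shown for Slc30a1 lie past the Ensembl start of the gene. Capitals mark the core letters of a metal response element, TGCACNC or TGCGCNC, on either strand.
Mt1: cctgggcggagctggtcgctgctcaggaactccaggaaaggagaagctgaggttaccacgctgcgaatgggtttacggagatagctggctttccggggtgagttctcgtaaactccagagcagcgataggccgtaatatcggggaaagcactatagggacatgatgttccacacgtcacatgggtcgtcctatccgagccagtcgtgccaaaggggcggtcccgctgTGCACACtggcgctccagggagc
Mt2: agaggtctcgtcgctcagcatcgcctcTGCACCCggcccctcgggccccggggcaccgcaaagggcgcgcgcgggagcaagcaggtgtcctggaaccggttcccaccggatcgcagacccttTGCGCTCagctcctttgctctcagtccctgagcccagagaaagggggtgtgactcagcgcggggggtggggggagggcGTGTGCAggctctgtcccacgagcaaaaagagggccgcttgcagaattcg
Slc30a1: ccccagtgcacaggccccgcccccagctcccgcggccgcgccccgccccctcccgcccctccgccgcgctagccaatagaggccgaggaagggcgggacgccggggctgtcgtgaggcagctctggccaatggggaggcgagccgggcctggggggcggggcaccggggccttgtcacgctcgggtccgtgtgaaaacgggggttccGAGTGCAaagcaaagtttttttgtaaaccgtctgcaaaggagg
Slc30a10: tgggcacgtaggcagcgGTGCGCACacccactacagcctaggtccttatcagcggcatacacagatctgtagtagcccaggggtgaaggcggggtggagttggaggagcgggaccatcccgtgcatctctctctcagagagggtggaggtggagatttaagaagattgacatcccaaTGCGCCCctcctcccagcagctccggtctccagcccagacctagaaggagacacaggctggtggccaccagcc

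Matches were counted in the whole 300-base window, which adds the first 50 bases after the start. Mt2 held 4 matches, 3 of them before the start, and 0.517% of all 32851 RefSeq promoter windows held at least as many. Mt1 held 3 matches, of which 1 lay before the start, at bases -23 to -17. The Slc30a10 window also held 3, and 2 of these overlap each other at bases -233 to -226. At least 3 matches were found in 1.97% of windows. Mt1 has 2 annotated transcripts, and its window lies at the Ensembl start of the gene. Sequence more than 50 bases past that start was not searched, so matches near a later start would be missed. Slc30a1 held 2 matches, a number reached by 7.11% of windows, with the one before the start at bases -43 to -37. Slc39a5 has 2 windows, one with 1 match and one with none, and 25.7% of windows held at least 1. Of the other motifs searched on both strands, the STAT letters TTCNNNGAA were in none of the members' windows and in 8.30% of all windows. The AP-1 letters TGANTCA were found once, in Mt2 at bases -79 to -73, and in 7.81% of all windows. Slc39a14 and Slc39a4 have no window in the table used. A match of letters is a description of the sequence and not evidence of binding.

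The total gene count per library was 10568530 to 11046256 in the Illumina STAR table, 10568530 to 12008799 over the Illumina tables and 12199528 to 16439683 over the Ion Torrent tables. The liver label was checked with 6 hepatocyte markers, all of which were tested and read at 9743 or more in every Illumina STAR library. Their summed level, in CPM (the usual count scaled to a common library size, here after TMM normalization), was 89159 to 108337 in untreated and 68554 to 81740 in treated livers, and 1 was called higher and 2 lower. Of 6 neutrophil markers in the table, 3 were tested and all 3 rose, from a summed 0.622 to 2.83 CPM in untreated to 38.8 to 86.3 CPM in treated livers, while Mpo, Elane and Ly6g had at most 2 reads in any library. Kupffer cell markers summed to 105 to 182 CPM in untreated and 60.0 to 139 CPM in treated livers (1 of 6 higher, 2 lower), endothelial markers to 91.3 to 134 and 62.0 to 104 (1 of 5 higher, 2 lower) and stellate cell markers to 224 to 281 and 154 to 238 (0 of 5 higher, 2 lower). Cholangiocyte markers summed to 4.37 to 7.07 and 9.06 to 14.7 CPM (2 of 4 higher), and lymphocyte markers to 1.33 to 3.33 and 0.906 to 1.98 CPM (1 of 4 tested lower). Pancreatic acinar markers, included because the ZIP5 protein is known from pancreas, summed to 7.12 to 11.1 and 4.24 to 7.40 CPM, with Cpa1, Prss2, Amy2a5 and Cel at 0 in all 10 libraries and 1 of 2 tested lower. Nearly all of that sum was Cela1, the gene called lower, at 7.04 to 11.1 and 4.24 to 7.40 CPM. The other tested gene was among those at 0. Intestinal epithelial markers summed to 42.9 to 68.6 and 26.4 to 46.1 CPM, with Lct at 0 in all 10 and 1 of 2 tested lower. The part of these marker changes in the members' values was not tested, and in bulk liver a change in the number of cells and in the RNA per cell cannot be told apart.

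IL-1β raised both metallothioneins and the importer Slc39a14 and lowered the exporter Slc30a1, while Slc39a4, Slc39a5 and Slc30a10 were not called. The test was edgeR's quasi-likelihood test with Benjamini-Hochberg adjustment over the 15578 genes, and a gene was called at an adjusted p below 0.05. The same 4 of 7 members were called, 3 higher and 1 lower, in all 6 tables. Calls were common among all genes: 45.7% were called in Illumina STAR, 47.5% in Illumina GSNAP, 47.4% in Illumina STAR + Bowtie2, 42.1% in Ion Torrent STAR, 46.4% in Ion Torrent GSNAP and 46.7% in Ion Torrent STAR + Bowtie2. In Illumina STAR, 22.7% of genes were called higher and 22.9% lower. A share of 4 in 7 called therefore lies near the background and does not set the members apart by number. The groups did not overlap for the same 4 members in each table, beside 33.9% of all genes tested in Illumina STAR. The size of the metallothionein change is what stood out, with Mt2 at rank 13 and Mt1 at rank 23 of the 15578 genes by log2 fold change.

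**Figure D1:**
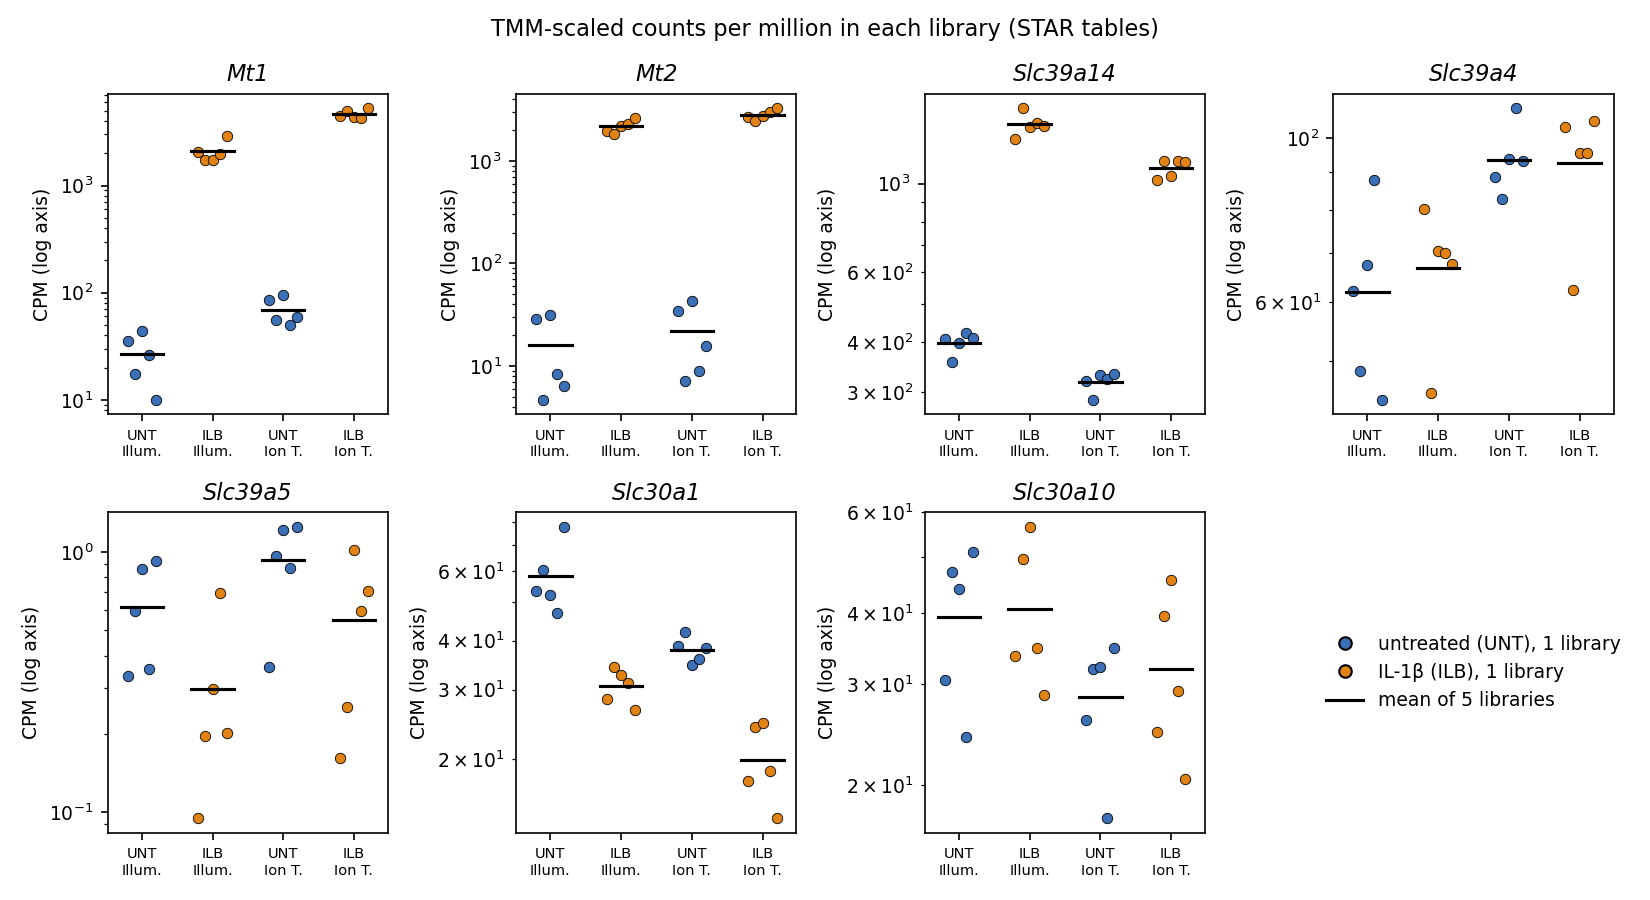
TMM-scaled CPM (log axis) of the 7 genes in each library of the STAR tables, by treatment and platform, with 1 point per library and a bar at the mean of 5 libraries. Treated and untreated libraries are apart for Mt1, Mt2, Slc39a14 and Slc30a1 on both platforms and overlap for Slc39a4, Slc39a5 and Slc30a10.

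Mt2 (ENSMUSG00000031762) lies on chromosome 8 at 96696518 to 96697467, plus strand, as 3 exons. In the Illumina STAR table it had 342, 55, 367, 93 and 68 reads in untreated mice UNT_9574, UNT_9575, UNT_9576, UNT_9580 and UNT_9584. In treated mice ILB_9577, ILB_9578, ILB_9579, ILB_9582 and ILB_9583 it had 20743, 18569, 21795, 23146 and 26057 reads. Every treated liver was thus far above every untreated one, and the untreated livers split into 2 with over 300 reads and 3 with under 100. The mean rose from 15.8 ± 13.0 CPM to 2176 ± 307 CPM (SD, n = 5 each). The log2 fold change was 7.10 (SE 0.51), a 137-fold rise with a 95% interval of 64.6 to 290-fold and an edgeR adjusted p of 4.77e-08. Over the 6 tables the fold was 128 to 137.

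Mt1 (ENSMUSG00000031765), the neighbouring gene, starts 5521 bases past the end of Mt2 and spans 96702989 to 96704225 of chromosome 8 on the same strand. It had 427, 206, 509, 295 and 108 reads in the untreated mice, in the same order as above. The treated mice had 21566, 17613, 17389, 20070 and 28891 reads, again with no overlap between groups. Mouse ILB_9583 was the highest of the treated livers for both metallothioneins. The mean rose from 26.6 ± 13.5 to 2081 ± 484 CPM (SD, n = 5 each), a log2 fold change of 6.29 (SE 0.35) with an edgeR adjusted p of 4.93e-09. That is a 78.1-fold rise (95% interval 46.2 to 132), and the fold over the 6 tables was 65.8 to 78.1.

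The Ion Torrent libraries of the same livers gave the same separation. In the STAR table Mt2 had 470, 97, 565, 113 and 201 reads in the untreated and 33132, 29274, 31831, 35141 and 36763 in the treated mice. Mt1 had 1184, 756, 1259, 628 and 762 reads in the untreated and 54518, 58686, 51377, 50239 and 59445 in the treated mice. Mice UNT_9574 and UNT_9576 were the highest untreated mice for both genes on both platforms. Among untreated livers the highest CPM was 4.35 times the lowest for Mt1 and 6.73 times for Mt2 in Illumina STAR, and among treated livers 1.68 and 1.43 times.

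Together the metallothioneins took 0.0045% ± 0.00284 of all gene counts in untreated livers and 0.407% ± 0.0669 in treated livers in Illumina STAR (SD, n = 5 each). The treated range was 0.342% to 0.517% and the untreated range 0.0016% to 0.00793%. In Ion Torrent STAR the shares were 0.00955% ± 0.00392 and 0.719% ± 0.0426. The two-sided exact permutation test over mice gave p = 0.00794 on each platform (n = 5 each), the smallest that 5 against 5 allow. The other mouse metallothioneins, Mt3 and Mt4, known from brain and stratified epithelium, did not reach the minimum for testing. Mt3 had at most 2 reads and Mt4 at most 1 in any Illumina STAR library.

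The balance of the metallothionein pair also moved toward Mt2. The ratio of Mt2 to Mt1 counts was 0.547 ± 0.242 in untreated and 1.06 ± 0.142 in treated livers in Illumina STAR (SD, n = 5 each). It was 0.801, 0.267, 0.721, 0.315 and 0.63 in untreated mice UNT_9574, UNT_9575, UNT_9576, UNT_9580 and UNT_9584. In treated mice ILB_9577, ILB_9578, ILB_9579, ILB_9582 and ILB_9583 it was 0.962, 1.05, 1.25, 1.15 and 0.902. All 5 treated mice lay above all 5 untreated ones, and the untreated mice were the more spread. On the log2 scale the mean ratio went from -1.01 ± 0.73 to 0.081 ± 0.19, a difference of 1.09 with a two-sided exact permutation p of 0.00794. The same smallest p was reached in all 6 tables, with differences of 1.09 to 1.31.

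The ratio was lower on Ion Torrent than on Illumina in 10 of 10 mice. In the Ion Torrent STAR table it averaged 0.284 ± 0.137 in untreated and 0.609 ± 0.0716 in treated livers (SD, n = 5 each). Mt2 counts were above Mt1 counts in 3 of 5 treated livers on Illumina and in 0 of 5 on Ion Torrent. The tables were normalized separately, but this ratio is taken within a library and does not use library size. The coding sequences of Mt1 and Mt2 are 79.6% identical (148 of 186 bases), and their longest identical run is 20 bases. How far reads were split between the pair by the aligners was not tested.

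**Figure D2:**
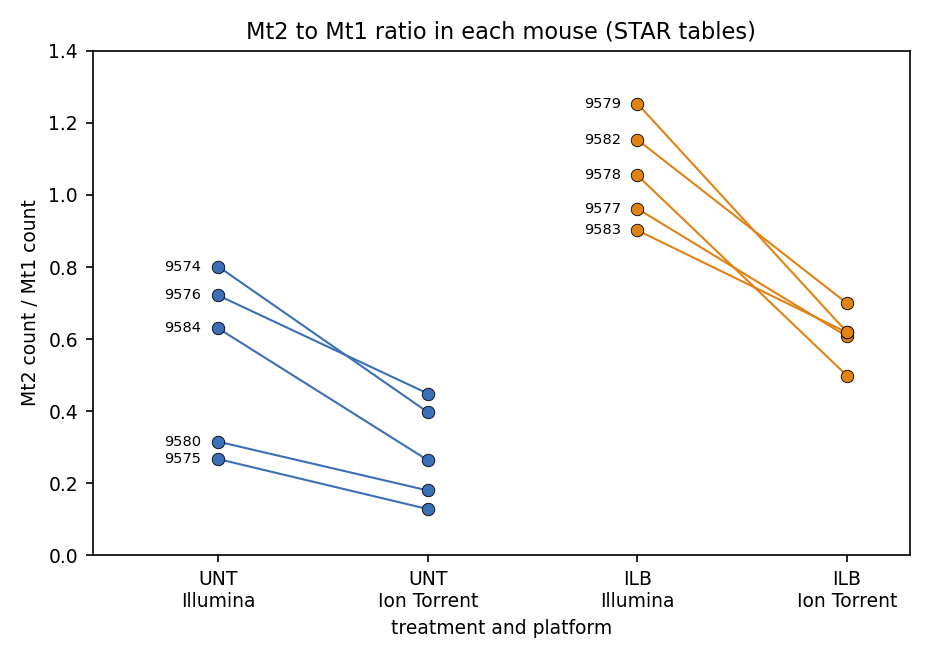
Ratio of Mt2 to Mt1 counts in each mouse (linear axis from 0), in the STAR tables, with a line joining the Illumina and Ion Torrent libraries of a mouse, whose number stands at the left. The ratio is higher in treated than in untreated mice on each platform, and each of the 10 lines falls from Illumina to Ion Torrent.

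Slc39a14 (ENSMUSG00000022094) encodes ZIP14, which carries zinc, manganese and non-transferrin-bound iron into hepatocytes. It spans 70703274 to 70751232 of chromosome 14 on the minus strand and has 14 annotated transcripts, which the counts do not separate. It had 4897, 4179, 4640, 4750 and 4418 reads in the untreated mice. The treated mice had 13672, 15719, 13979, 14306 and 13844 reads. The groups were tight and far apart, with a coefficient of variation of 6.41% in untreated and 6.46% in treated livers, against 50.7% and 23.3% for Mt1. The mean rose from 399 ± 25.6 to 1409 ± 91.1 CPM (SD, n = 5 each), a log2 fold change of 1.82 (SE 0.095) and an edgeR adjusted p of 2.26e-09. This was a 3.53-fold rise (95% interval 3.07 to 4.07) and 3.44 to 3.54-fold over the 6 tables. On Ion Torrent STAR the counts were 4413, 3863, 4358, 4066 and 4237 in untreated and 12602, 13491, 12288, 13405 and 12716 in treated mice, likewise without overlap.

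Slc39a4 (ENSMUSG00000063354) encodes ZIP4, the importer known for uptake of dietary zinc in the intestine. It lies at 76442815 to 76447322 of chromosome 15, minus strand. Its counts overlapped between groups, with 747, 569, 786, 988 and 477 reads in untreated and 846, 459, 708, 706 and 671 reads in treated mice. The log2 fold change was 0.10 with a 95% interval of -0.28 to 0.49 (edgeR adjusted p = 0.691). Its sign differed between the platforms, from -0.038 to 0.13 over the 6 tables. Changes inside this interval could not be told from none with 5 mice a group.

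Slc39a5 (ENSMUSG00000039878) encodes ZIP5, known from the basolateral membrane of intestine and pancreas. It lies at 127832990 to 127838280 of chromosome 10, minus strand, inside the span of Ankrd52 on the opposite strand but with no exon bases shared. It was near the limit of counting, with 4, 7, 10, 4 and 10 reads in untreated and 1, 2, 3, 7 and 2 reads in treated mice. The log2 fold change was -1.02 (95% interval -2.06 to 0.026) and the edgeR adjusted p was 0.106 in Illumina STAR, and -0.23 to -1.02 over the 6 tables. Without treated mouse ILB_9582, which had 7 reads, the value was -1.59 with an edgeR adjusted p of 0.0206.

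Slc30a1 (ENSMUSG00000037434) encodes ZnT1, the zinc exporter of the plasma membrane and itself a known target of the metal-sensing factor. It spans 193730646 to 193737126 of chromosome 1, plus strand, in 2 exons. It had 644, 710, 610, 529 and 839 reads in the untreated mice. The treated mice had 299, 348, 329, 314 and 264 reads. The lowest untreated liver was above the highest treated one, so the exporter moved opposite to the metallothioneins. The mean fell from 58.3 ± 12.0 to 30.6 ± 3.14 CPM (SD, n = 5 each), a log2 fold change of -0.93 (SE 0.13) and an edgeR adjusted p of 4.29e-05. The level was 1.90-fold lower (95% interval 1.56 to 2.32). On Ion Torrent STAR the untreated mice had 533, 567, 458, 454 and 489 reads and the treated mice 217, 286, 290, 219 and 159, also without overlap. Over the 6 tables the log2 fold change was -0.93 to -0.89. Exons of 1700034H15Rik on the opposite strand cover 8.92% of the exon bases of Slc30a1, but that gene had only 1 to 14 reads.

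Slc30a10 (ENSMUSG00000026614) belongs to the ZnT family by sequence and is known mainly as a manganese exporter. It spans 187278727 to 187292641 of chromosome 1, plus strand, in 4 exons. It had 367, 553, 513, 273 and 549 reads in untreated and 354, 504, 570, 350 and 286 reads in treated mice. The groups overlapped almost fully, with a log2 fold change of 0.047 (95% interval -0.41 to 0.50, edgeR adjusted p = 0.912) and 0.047 to 0.16 over the 6 tables. The mice of a group differed widely, with a coefficient of variation of 29.0% in untreated and 29.1% in treated livers. Exons of Gm2061 on the opposite strand (4 to 37 reads) cover 9.13% of its exon bases.

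**Figure D3:**
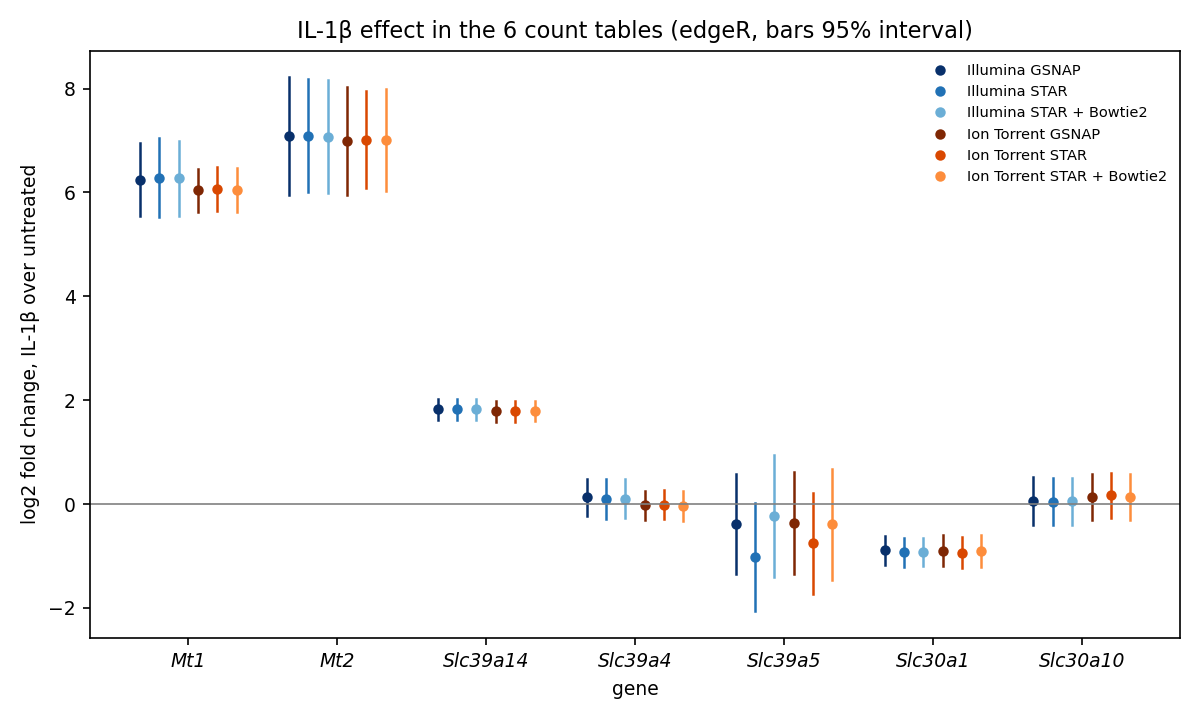
Log2 fold change of treated over untreated livers for the 7 genes in the 6 count tables, with 5 mice a group in each table. Points are edgeR estimates and bars 95% intervals. Mt1, Mt2 and Slc39a14 lie above 0 and Slc30a1 below 0 in all 6 tables, and the intervals of the other 3 genes cross 0.

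The treatment effect on the members was also compared between platforms in 1 fit to the 20 STAR libraries, with the mouse as a block. The platform-by-treatment term of Mt1 was -0.25 on the log2 scale (Ion Torrent minus Illumina, 95% interval -0.59 to 0.089, edgeR adjusted p = 0.768), and that of Mt2 was -0.11 (-0.35 to 0.14). Slc39a14 had a term of -0.022 (-0.16 to 0.11) and Slc30a1 one of -0.022 (-0.27 to 0.22). None of the 7 members was called by edgeR or DESeq2, and 0 of 7 had an unadjusted p below 0.05 with either tool. Of all genes tested, 0.00642% were called. The libraries of mouse UNT_9584 resembled each other least (r = 0.249 between the deviations of its libraries from their group means, against 0.562 or more in the other 9 mice), and without that mouse 0 of 7 members were called too.

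Per length of exon, both metallothioneins stood far above the other members in treated livers on both platforms. In untreated livers on Illumina STAR, as CPM over the exon length in kilobases (RPKM), Slc39a14 was at 37.8 ± 2.42, Mt1 at 35.3 ± 17.9, Mt2 at 28.5 ± 23.4, Slc39a4 at 27.4 ± 7.62, Slc30a1 at 11.1 ± 2.29, Slc30a10 at 6.75 ± 1.96 and Slc39a5 at 0.287 ± 0.129 (SD, n = 5). With these lengths the ranges of the first 4 all overlapped, while Slc30a1 stood below Slc39a4 and above Slc30a10, and Slc39a5 below all others, with no overlap. In treated livers Mt2 was at 3913 ± 552, Mt1 at 2764 ± 643, Slc39a14 at 134 ± 8.63, Slc39a4 at 29.4 ± 5.71, Slc30a10 at 6.97 ± 2.03, Slc30a1 at 5.84 ± 0.60 and Slc39a5 at 0.139 ± 0.109. The metallothioneins overlapped each other there, as did Slc30a10 and Slc30a1, and the other neighbours did not. Mt1 had the higher mean of the metallothionein pair in untreated livers on both platforms, at 92.2 ± 26.7 on Ion Torrent STAR beside 39.2 ± 28.6 for Mt2. In treated livers the order differed, with Mt1 at 6194 ± 578 and Mt2 at 5085 ± 559 on Ion Torrent STAR. Slc39a14 took place 4 in the untreated group there, at 30.2 ± 1.76. The lengths are those of all annotated exons joined, which for Slc39a14 (10552 bases) is longer than its longest transcript (5117 bases), and its place depended on that choice. With the longest transcript the order of means on Illumina was the same, but Slc39a14 in untreated livers was then at 69.5 to 82.5, with no overlap with Mt1 (15.9 to 69.2), Mt2 (8.42 to 56.6) or Slc39a4 (19.6 to 38.8). On Ion Torrent it moved from place 4 to place 2, at 62.2 ± 3.62, and Mt2 to place 4. For Mt1 too, the joined exons (753 bases) are longer than the longest transcript (631 bases). With that transcript Mt1 was at 3298 ± 768 in treated livers on Illumina, nearer to Mt2.

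Several other zinc importers rose as well. Of the 11 other ZIP genes, 10 were tested. On Illumina STAR 7 were called higher and 2 lower, and on Ion Torrent STAR 5 were called higher and the same 2 lower, since Slc39a9 (0.26, edgeR adjusted p = 0.0584) and Slc39a13 (0.21, edgeR adjusted p = 0.335) were not called there. On Illumina STAR the list had a median log2 fold change of 0.52 against 0.0047 over all genes whose counts averaged 10 or more. Slc39a10, encoding the importer ZIP10, rose from 48 to 55 reads in untreated to 211 to 236 reads in treated mice, a log2 fold change of 2.27 (edgeR adjusted p = 2.00e-09). Slc39a6, its close relative, rose by 1.88 (edgeR adjusted p = 8.78e-07). Slc39a7, whose product releases zinc from the endoplasmic reticulum, had a log2 fold change of 1.24 and Slc39a1 of the plasma membrane one of 1.17. The 2 that fell were Slc39a8, encoding ZIP8, the closest relative of ZIP14, at -0.64 (edgeR adjusted p = 0.00466), and Slc39a11 at -0.37 (edgeR adjusted p = 0.0116). Slc39a14 and Slc39a8, which carry a similar range of metals, thus moved in opposite directions.

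Among the 8 other ZnT genes, 6 were tested, and on both STAR tables the same 2 rose and none fell. Both that rose encode transporters of the early secretory pathway. Slc30a5, encoding ZnT5, went from 524 to 798 reads in untreated to 1813 to 2601 reads in treated mice, a log2 fold change of 1.81 (edgeR adjusted p = 1.19e-07). Slc30a7, encoding ZnT7, had a log2 fold change of 1.41 (edgeR adjusted p = 1.00e-06). Counting members too, on Illumina STAR 8 of 13 tested Slc39a genes were higher and 2 lower, and 2 of 8 tested Slc30a genes were higher and 1, Slc30a1, lower. The percentages of all genes called higher and lower were 22.7% and 22.9%, as above. For Ion Torrent STAR 42.1% of all genes were called in either direction, and shares by direction were not taken.

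**Figure D4:**
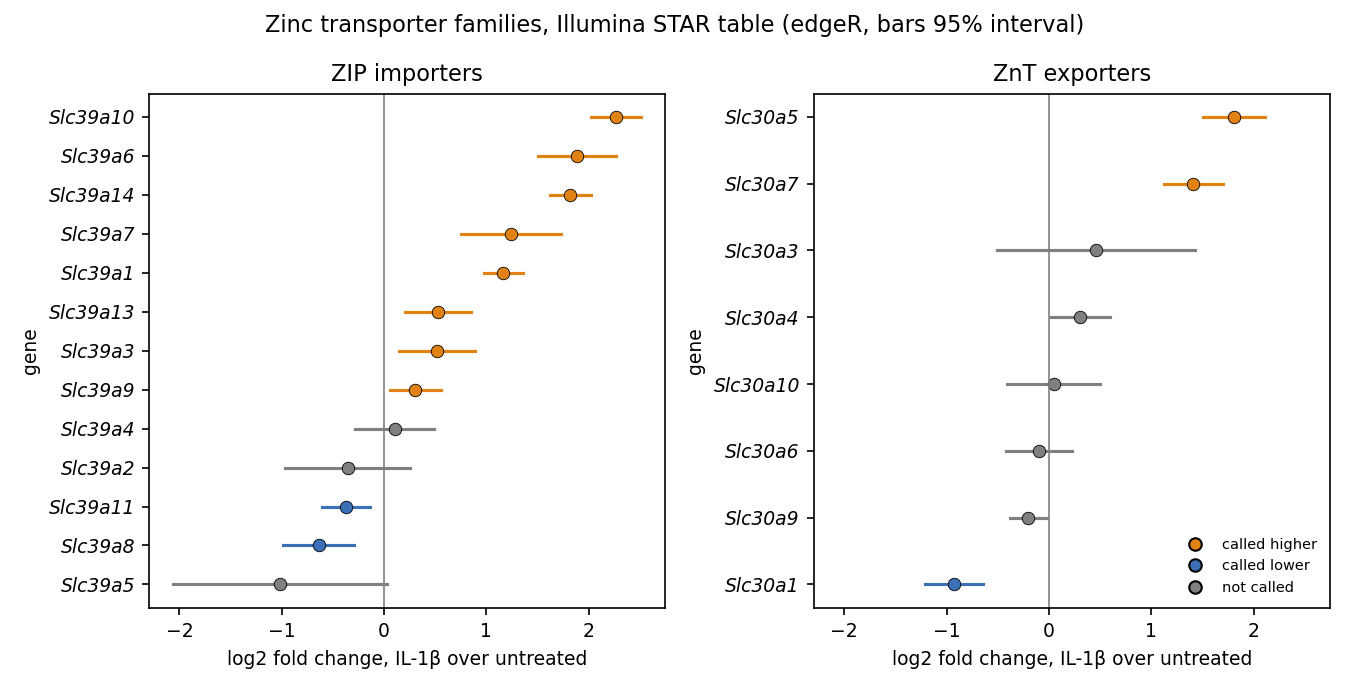
Log2 fold change of treated over untreated livers in the Illumina STAR table for the 13 tested ZIP and 8 tested ZnT genes, with 95% intervals and colours for the edgeR call. Slc39a10, Slc39a6 and Slc39a14 have the highest values among the importers, and Slc30a1 is the only ZnT gene called lower.

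Genes of the pathways known to act on the metallothioneins were mostly higher on Illumina STAR. Over all genes tested in that table, 22.7% were called higher and 22.9% lower. Mtf1, the metal-sensing factor, had a log2 fold change of 0.83 (edgeR adjusted p = 2.90e-05). Of 6 genes of IL-6 and STAT3 signaling, 5 were tested and all 5 were called higher. Socs3, the feedback inhibitor of this pathway, had a log2 fold change of 2.30, Stat3 one of 1.81, the receptor genes Il6ra and Il6st both 0.87, and Jak1 one of 0.53. Il6 itself had at most 3 reads in any Illumina STAR library and was not tested. Of 6 genes of the glucocorticoid receptor and its targets, 4 were called higher and 1 lower. The targets Sgk1, Zbtb16, Per1 and Fkbp5 had log2 fold changes of 1.37, 1.33, 1.21 and 0.97, and the receptor gene Nr3c1 fell by 0.65. The target Tsc22d3 went the other way, at -0.65, and was not called (edgeR adjusted p = 0.0867). On Ion Torrent STAR Mtf1 and all 5 tested genes of IL-6 and STAT3 signaling were called higher, beside 42.1% of all genes called in either direction. Of the 6 glucocorticoid genes, 4 were called higher and 1 lower there. Whether any of these genes had a part in the metallothionein rise was not tested. Their transcript counts do not measure the activity of a pathway.

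Among genes for other metals, no copper gene was called higher, and the iron transporter genes Slc11a2 and Slc40a1 moved in opposite directions on both platforms. Of 8 genes of copper handling, which metallothioneins also bind, 0 were called higher and 4 lower on Illumina STAR, and 3 lower on Ion Torrent STAR, where Commd1 (-0.20, edgeR adjusted p = 0.137) was not called. On Illumina STAR Atp7b, the copper exporter of hepatocytes, fell by 1.45 on the log2 scale (edgeR adjusted p = 1.05e-06), and Slc31a2, Ccs and Commd1 fell by 0.75, 0.62 and 0.34. Of 4 other transporters of divalent metals, 1 was called higher and 1 lower on Illumina STAR, and 2 higher and 1 lower on Ion Torrent STAR, where Slc11a1 (0.62, edgeR adjusted p = 0.00929) was called too. On Illumina STAR Slc11a2, encoding the iron importer DMT1, had a log2 fold change of 2.23 (edgeR adjusted p = 3.97e-09), and Slc40a1, encoding the iron exporter ferroportin, fell by 1.89 (edgeR adjusted p = 6.35e-07). Slc39a14, which also carries iron, and Slc11a2 were thus higher where Slc40a1 was lower. Beside these counts for copper and other metals, 22.7% of all genes tested were called higher and 22.9% lower on Illumina STAR. The share called in either direction on Ion Torrent STAR was 42.1%.

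Within the treatment groups, the members were compared by their deviations from the group mean over the 10 mice. Mt1 and Mt2 deviated together, with a Pearson r of 0.82 on Illumina and 0.91 on Ion Torrent (STAR tables). The exporters Slc30a1 and Slc30a10 did so too, at 0.79 and 0.78, and Slc39a4 deviated opposite to Slc30a1, at -0.81 and -0.66. The deviations of Slc39a14 correlated with those of Mt1 at 0.027 on Illumina and 0.36 on Ion Torrent, and with those of Mt2 at 0.23 and 0.49. Mt1 with Slc30a1 was at -0.84 on Illumina and -0.22 on Ion Torrent. These are descriptions over 10 libraries that share their treatment groups and scaling. On Illumina the untreated livers spread more than the treated ones for Mt1 (highest over lowest CPM 4.35 against 1.68) and Mt2 (6.73 against 1.43). Untreated mice therefore weigh more in the values that involve metallothioneins, and r was not taken within each group alone. Among the 7804 other genes whose counts averaged 100 or more, the 5 most like the summed metallothioneins on Illumina were Lrg1 (r = 0.93), Snap47 (0.92), Pcif1 (0.91), Tnfrsf1a (0.91) and Tbc1d22a (0.90). In the Ion Torrent libraries of the same mice their r was 0.71, 0.83, 0.27, 0.64 and 0.012, so the likeness of Pcif1 and Tbc1d22a was not seen on the other platform. The 5 were picked as the highest of 7804 values over 10 libraries, and such a choice alone brings out high r. Ion Torrent libraries hold RNA of the same livers and are no independent test of any of the 5. The metallothionein sum itself had an r of 0.80 between the platforms. Leaving out mouse UNT_9584, a choice made after seeing the data, gave 0.91 for that value and 0.88 and 0.92 for Mt1 with Mt2. Slc30a1 with Slc30a10 was then at 0.85 and 0.81, Slc39a4 with Slc30a1 at -0.79 and -0.66, Mt1 with Slc30a1 at -0.62 and -0.22, and Slc39a14 with Mt1 at 0.26 and 0.46. The 5 genes most like the sum were at 0.84 to 0.89 on Illumina over those 9 mice.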

How the data were processed

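Liver RNA of 10 mice was sequenced on Illumina and Ion Torrent. The authors deposited whole-number counts per gene in 6 tables, after alignment to mm9 with GSNAP, STAR 2.5.1b or STAR followed by Bowtie2 2.2.9 (submitters' processing notes), removal of rRNA and mitochondrial reads and re-sampling to equal depth within each table by PORT. Treatments were therefore compared within a table. The strand setting of gene counting is not given in the sources used here, so opposite-strand overlaps are stated. All 60 columns were used, each mapped to a mouse by name, and reads were not realigned.

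Counts were scaled by TMM and fitted with edgeR 4.0.16 (quasi-likelihood, two-sided, Benjamini-Hochberg over 15578 genes, R 4.3.3). Each SE was the absolute log2 fold change over the square root of the test's F statistic, and intervals were built from it. An SE made this way is less sure where the log2 fold change is near 0. The study's methods used a rank test, whose smallest p for 5 against 5 is 0.00794; it was run as an alternative. Others were DESeq2 1.42.0, limma 3.58.1, other filters, no scaling and each mouse left out. The fits were also run on simulated counts, with few changed genes and no effect shared by the libraries of a mouse. That run cannot check TMM under a change as broad as here, nor the use of the mouse as a block. For the platform-by-treatment term the mouse was a block, since both libraries came from the same liver. The deviations of a mouse's libraries correlated at 0.199 to 0.728 over 3 aligners. With each aligner, the Illumina libraries of 9 mice were most like the Ion Torrent library of the same mouse. That of UNT_9584 was more like another mouse's. Without TMM genes averaging 10 counts or more had a median log2 fold change of -0.12 in Illumina STAR.

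The 7 members and all lists were chosen with earlier results of these data known. Named besides the members were up to 5 genes called higher and 5 lower from each list, by size of log2 fold change. The 5 genes most like the metallothionein sum were named too. Genes named for being at or near 0 reads and the opposite-strand neighbours were chosen after their values were seen. So were Tsc22d3 and the list genes whose call differed between platforms. Il8rb, a neutrophil marker, matched no symbol. Positions and lengths are from Ensembl gene models on NCBIM37, of an earlier release than the authors used, which held 37310 of 37681 identifiers. The deposited coordinates extend further on both sides than these models. Promoter windows are from RefSeq, 5 of 7 members having one. Python 3.11.15, Biopython 1.88, pandas 2.3.3, numpy 2.4.6 and matplotlib 3.10.9 were used.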

Additional observations from a re-analysis of the deposited data

Results flagged for a closer look

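In each of 36 groups of 5 mice (7 members, the Mt2 to Mt1 ratio and the metallothionein share, by treatment, in both STAR tables), the highest and lowest mouse was compared with Dixon's 95% critical value for 5 samples, 0.71 as the gap to the nearest mouse over the range. At this level about 5% of groups are passed by chance, and 3 of the 36 were. Treated mouse ILB_9583 had the highest Mt1 level on Illumina, at 2908 CPM beside 2045 for the next mouse (0.731 of the range). Untreated mouse UNT_9575 had the lowest Slc39a14 level on Ion Torrent, at 287 CPM beside 320 (0.730 of the range). Treated mouse ILB_9578 had the lowest Slc39a4 level on Ion Torrent, at 62.2 CPM beside 95.5 (0.769 of the range).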

How the results depend on the processing

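The number of members called was 4 under every alternative in all 6 tables except 1. Without treated mouse ILB_9582 it was 5 in Illumina STAR, where Slc39a5 was then called lower (log2 fold change -1.59, leave-one-out range -1.59 to -0.79). Mt1, Mt2, Slc39a14 and Slc30a1 kept their call and direction under all alternatives run in each table. Over the alternatives for Illumina STAR, the largest adjusted p of each was 0.0236, from the exact rank test. The difference in log2 Mt2 to Mt1 ratio was 0.86 to 1.26 with 1 mouse left out, with an exact permutation p of up to 0.0238, and the difference in share was 0.375 to 0.418 percentage points. All pathway lists together (zinc, copper and other metals, Mtf1, IL-6 and STAT3 signaling, and the glucocorticoid receptor and its targets) gave 17 to 21 genes higher (20 as reported) and 7 to 12 lower (8 as reported). Over all genes tested, 22.7% were called higher and 22.9% lower in Illumina STAR as reported.

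The signs of the uncalled members were not stable. Without scaling, Slc39a4 was at -0.025 in Illumina STAR and Slc30a10 at -0.078, -0.056 and -0.052 in Illumina STAR, GSNAP and STAR + Bowtie2. The exact rank test, whose fold change is from unscaled counts, gave Slc39a4 -0.073, -0.042 and -0.040 and Slc30a10 -0.13, -0.11 and -0.099 in the same tables, and Slc30a10 -0.012 in Ion Torrent GSNAP. DESeq2 gave Slc39a4 0.0012 in Ion Torrent STAR. With 1 mouse left out, Slc30a10 ranged from -0.10 to 0.16, -0.082 to 0.18 and -0.096 to 0.14 in Illumina STAR, GSNAP and STAR + Bowtie2, and from -0.00091 to 0.25 and -0.0015 to 0.25 in Ion Torrent GSNAP and STAR + Bowtie2. Slc39a4 ranged from -0.0010 to 0.26 in Illumina STAR + Bowtie2 and from -0.083 to 0.089, -0.061 to 0.12 and -0.10 to 0.079 in Ion Torrent GSNAP, STAR and STAR + Bowtie2, and Slc39a5 from -0.83 to 0.098 in Illumina STAR + Bowtie2. The cause was not tested.

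Without the replicate block, which pairs the libraries of a mouse, 0 of 7 members had a platform-by-treatment call, as with it, and the Slc30a1 term was 0.0079. With STAR + Bowtie2 the Slc39a5 term was -0.15. With 1 mouse left out, the terms ranged from -0.17 to 0.050 for Mt2, -0.040 to 0.029 for Slc39a14, -0.020 to 0.78 for Slc39a5 and -0.12 to 0.042 for Slc30a1. With 1 to 10 reads per library in Illumina STAR, Slc39a5 is limited by depth, and with 5 mice a group the intervals of Slc39a4 and Slc30a10 limit what could be seen.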
